A study of Nothobranchius furzeri and Aphyosemion australe and Iconisemion striatum with 145 samples.

Results

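The genes of the Wnt signaling pathway were described in embryos of the African turquoise killifish, *Nothobranchius furzeri*, shortly before the stage at which this species can enter diapause, a suspended state of the embryo. Members were chosen by a rule on gene names, set when earlier results of these data were known. By this rule, 71 of the 25122 genes in the African turquoise count table were members. They carry a symbol of a Wnt ligand, receptor, antagonist, signal transducer, nuclear effector or planar polarity gene. RNA was sequenced from 4 pools of embryo bodies, each of 8 to 10 embryos, freed of chorion, enveloping layer and yolk. The embryos had 15 to 22 somites by the sample labels and still carried Kupffer's vesicle, and they were of the GRZ strain. They came from first clutches of young parents, and most embryos of such clutches were expected to skip diapause. No mutation or treatment was used, and the 4 pools form 1 group. The series also holds pools of 2 other killifish species, whose features are not paired with gene names, and single embryos of knockout experiments. Neither is analysed here.

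Wnt proteins are secreted, lipid-modified ligands that bind Frizzled receptors together with LRP5 or LRP6 co-receptors. Without a Wnt signal, a destruction complex of AXIN, APC, casein kinase 1 and GSK3 marks beta-catenin for degradation; when the receptors are engaged, Dishevelled recruits this complex away, and beta-catenin enters the nucleus and activates genes through TCF/LEF factors. A separate branch uses Vangl, Celsr and Prickle proteins to orient cells in the plane of a tissue. In vertebrate embryos at somite stages, the pathway is known for its part in extending the tail, in patterning the brain along its anterior-posterior axis and in forming the neural crest. The roles given below are known from zebrafish, frog or mammals and were not examined here.

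Levels are given as CPM, the counts a gene would have in a library of 1000000 counted reads. CPM values were not divided by transcript length, since no lengths of the counted genes were used here. They serve to compare 1 gene between libraries and do not rank different genes. In RNA of whole embryo bodies, fewer cells of a type and less RNA per cell cannot be told apart. Nothing in the labels states that the pools came from different parents, so the SD over 4 libraries measures the spread between pools only. Each library held between 25985703 and 41191533 counts, and library 2 was the deepest. Every pair of libraries differed by more than counting noise, with a chi-square per degree of freedom of at least 82.9, so none was treated as a duplicate of another. The median gene of library 3 lay at -0.16 on the log2 CPM scale relative to the other libraries, against 0.01 to 0.07 for libraries 1, 2 and 4.

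Most of the pathway was detected. Of the 71 members, 57 reached 1 CPM in every library, a share of 80.3%, where 53.7% of all genes in the table did so. A further 6 members had at least 10 counts in every library without reaching 1 CPM in each, which makes 63 in all, or 88.7% beside 63.8% of all genes. No member was without a count in all 4 libraries, whereas 4.22% of all genes were. By role, 8 of 13 ligands, 2 of 2 secretion genes, 9 of 11 receptors, 4 of 6 genes of the R-spondin branch, 5 of 6 secreted antagonists, 13 of 15 cytoplasmic relay genes, 10 of 10 nuclear effectors and 6 of 8 planar polarity genes reached 1 CPM in every library. The nuclear count includes ctnnbl1, which meets the naming rule but codes for a protein linked to splicing and not to Wnt signaling. By the naming rule, pathway genes that the table lists under LOC identifiers are not members, while the shares over all genes include such entries. The role counts leave them out. With the LOC entries of the pathway added, 71 of 92 genes reached 1 CPM in every library.

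**Figure D1:**
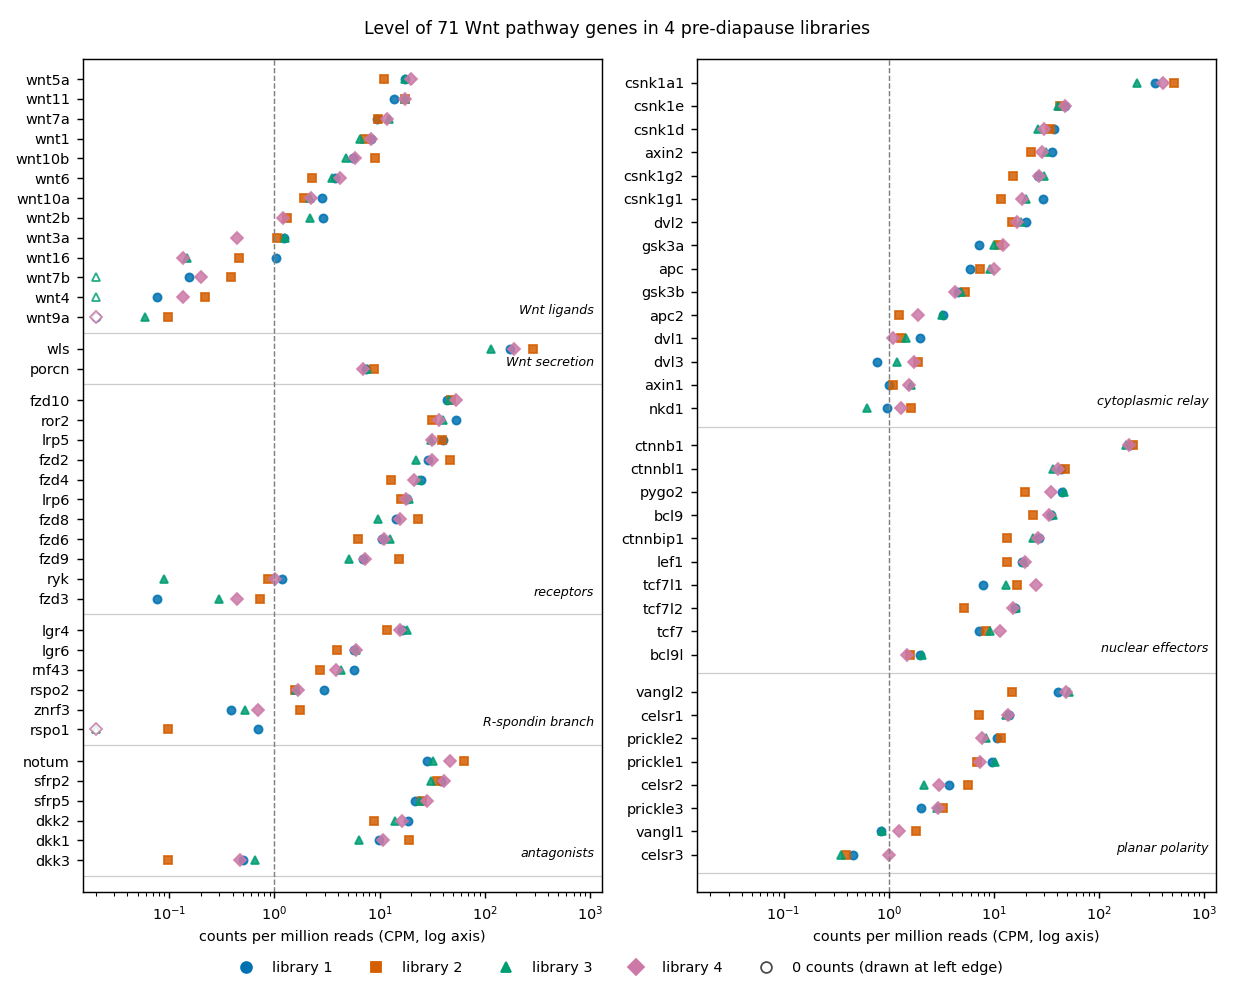
CPM of each of the 71 members in each of the 4 libraries on a log axis, sorted within each role by mean CPM, with the limit of 1 CPM dashed and values of 0 drawn as open symbols at the left edge. The 8 genes listed below 10 counts in some library are 4 ligands, 2 receptors, rspo1 and dkk3.

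Among the ligands, wnt11 and wnt5a both act mainly outside the beta-catenin branch, in cell movement and tissue elongation. For wnt5a, 17.5, 10.997, 17.5 and 20.1 CPM were measured in libraries 1 to 4, a mean of 16.5 ± 3.88 CPM (SD, n = 4). Library 2 was the lowest and the other 3 lay close together. Levels of wnt11 were 13.6, 17.4, 17.6 and 17.5 CPM, with 16.5 ± 1.94 CPM as the mean (SD, n = 4). Here library 1 alone was low on library totals, and the other 3 libraries spanned less than 1 CPM. With TMM library 1 was still the lowest, but the range of wnt11 rose from 1.29-fold to 1.52-fold. The count ratio of wnt5a to wnt11 was therefore 0.632 in library 2 and between 0.995 and 1.29 in the others. The neural ligand wnt7a was measured at 9.54, 9.76, 12.3 and 11.8 CPM. In wnt1, a ligand of the midbrain-hindbrain boundary and the dorsal neural tube, levels were 8.31, 7.23, 6.45 and 8.22 CPM, with an SD of 0.880 CPM around a mean of 7.55 CPM.

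The remaining ligands differed between libraries as follows. A neighbor of wnt1 with overlapping expression in zebrafish, wnt10b, had 5.62, 9.10, 4.74 and 5.87 CPM. It was 1.92-fold higher in library 2 than in library 3 and was the only ligand with 10 or more counts in every library that peaked in library 2. The ectodermal ligand wnt6 had 3.77, 2.26, 3.51 and 4.22 CPM, wnt10a had 1.89 to 2.85 CPM, and wnt2b had 1.21 to 2.89 CPM. The tail bud and dorsal neural ligand wnt3a had 1.23, 1.07, 1.27 and 0.436 CPM. Libraries 1 to 3 lay close together and library 4 was low, at 13 counts. Fewer than 10 counts were present in at least 1 library for wnt16 (4 to 27 counts), wnt7b (0 to 16), wnt4 (0 to 9) and wnt9a (0 to 4). A count of 0 allows up to 0.115, 0.0728, 0.0884 and 0.101 CPM in libraries 1 to 4, counting error only. Summed over the 13 ligands, the level was 66.7, 62.2, 68.0 and 71.96 CPM. Ligands with LOC identifiers, among them wnt5b, are given below and are not in this sum.

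Both genes that Wnt-producing cells need for export were measured in depth. The membrane protein WLS carries lipid-modified Wnt proteins to the cell surface. Levels of wls were 173, 289, 116 and 192 CPM, a 2.49-fold range with library 2 highest and library 3 lowest. Porcupine, the acyltransferase that attaches the lipid, differed less, as porcn had 7.43, 8.79, 7.63 and 6.97 CPM. The count ratio of wls to porcn moved 2.16-fold between libraries, from 15.2 to 32.9.

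Some Frizzled genes followed opposite patterns across the same libraries. Levels of fzd2 were 29.2, 47.1, 22.0 and 31.5 CPM. In fzd8, a receptor known from the anterior neural plate, they were 14.5, 23.1, 9.61 and 15.6 CPM. For fzd9 they were 7.004, 15.3, 5.07 and 7.24 CPM. All 3 genes had the same order of libraries, with library 3 lowest, then 1, 4 and 2, and ranges of 2.14-fold, 2.41-fold and 3.02-fold. By contrast, fzd4 had 24.6, 12.8, 23.9 and 21.4 CPM, and fzd6, which acts in planar polarity, had 10.6, 6.21, 12.6 and 11.1 CPM. Library 2 was the lowest for both. Within a library, the count ratio of fzd2 to fzd4 was 1.19, 3.69, 0.919 and 1.47, and that of fzd8 to fzd6 was 1.37, 3.72, 0.763 and 1.41. These pairs were chosen after their values were seen.

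Of the other receptors, fzd10 and the LRP genes varied little between pools, while the entries named ryk and fzd3 had few counts and wide ranges. Further entries, named fzd3a and fzd3b in RefSeq, are given below. In fzd10, a receptor of the dorsal neural tube, 43.5, 47.5, 45.5 and 53.0 CPM were measured, a CV of 8.59%. The LRP co-receptors were present in each pool, with lrp5 at 39.8, 38.9, 30.6 and 31.7 CPM and lrp6 at 18.2, 15.998, 18.95 and 18.04 CPM. The CV of lrp6, 7.10%, was among the lowest of all members. Levels of ror2, a receptor tyrosine kinase for Wnt5a-type ligands, were 53.5, 31.8, 39.8 and 36.5 CPM, with library 1 highest and library 2 lowest. The pseudokinase receptor ryk had 31, 36, 3 and 30 counts, so that library 3 alone was nearly without reads. For fzd3 the counts were 2, 30, 10 and 13.

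R-spondins raise Wnt sensitivity by binding LGR receptors and clearing the ligases ZNRF3 and RNF43, which otherwise remove Frizzled from the cell surface. The receptor lgr4 had 16.4, 11.7, 18.1 and 15.6 CPM, and lgr6 had 5.70, 3.96, 5.92 and 6.00 CPM. Library 2 was the lowest for both, and in lgr6 the other 3 libraries lay close together. The ligases went opposite ways in libraries 1 and 2. For rnf43, levels were 5.70, 2.74, 4.27 and 3.82 CPM, whereas znrf3 was measured at 0.385, 1.75, 0.530 and 0.704 CPM, from 10, 72, 18 and 21 counts. The spread of znrf3, a CV of 73.4%, was the largest among the 63 members with 10 or more counts in every library. The ligand rspo2 had 2.96, 1.55, 1.59 and 1.68 CPM, with library 1 apart from the others. Only 18, 4, 0 and 0 counts were present for rspo1.

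Of the secreted antagonists, dkk1 and dkk2 went opposite ways in library 2, as some Frizzled genes did. Notum removes the lipid from Wnt proteins and is itself induced by Wnt signaling. Levels of notum were 28.2, 63.7, 32.2 and 47.2 CPM, a 2.26-fold range with libraries 2 and 4 above libraries 1 and 3. Dickkopf 1 blocks LRP5 and LRP6 and is known for its role in head formation. For dkk1, levels of 9.85, 18.96, 6.34 and 10.9 CPM were measured, a 2.99-fold range in the same library order as fzd2, fzd8 and fzd9. The related dkk2 had 18.7, 8.86, 14.1 and 16.4 CPM, and was lowest in the library where dkk1 was highest. The count ratio of dkk1 to dkk2 was 2.14 in library 2 and 0.451 to 0.661 in the others. The Frizzled-related proteins, which bind Wnt ligands outside the cell, were steadier. In sfrp2 levels were 38.2, 35.1, 30.8 and 41.1 CPM, and in sfrp5 21.6, 25.5, 24.3 and 28.4 CPM. At most 22 counts per library were present for dkk3.

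**Figure D2:**
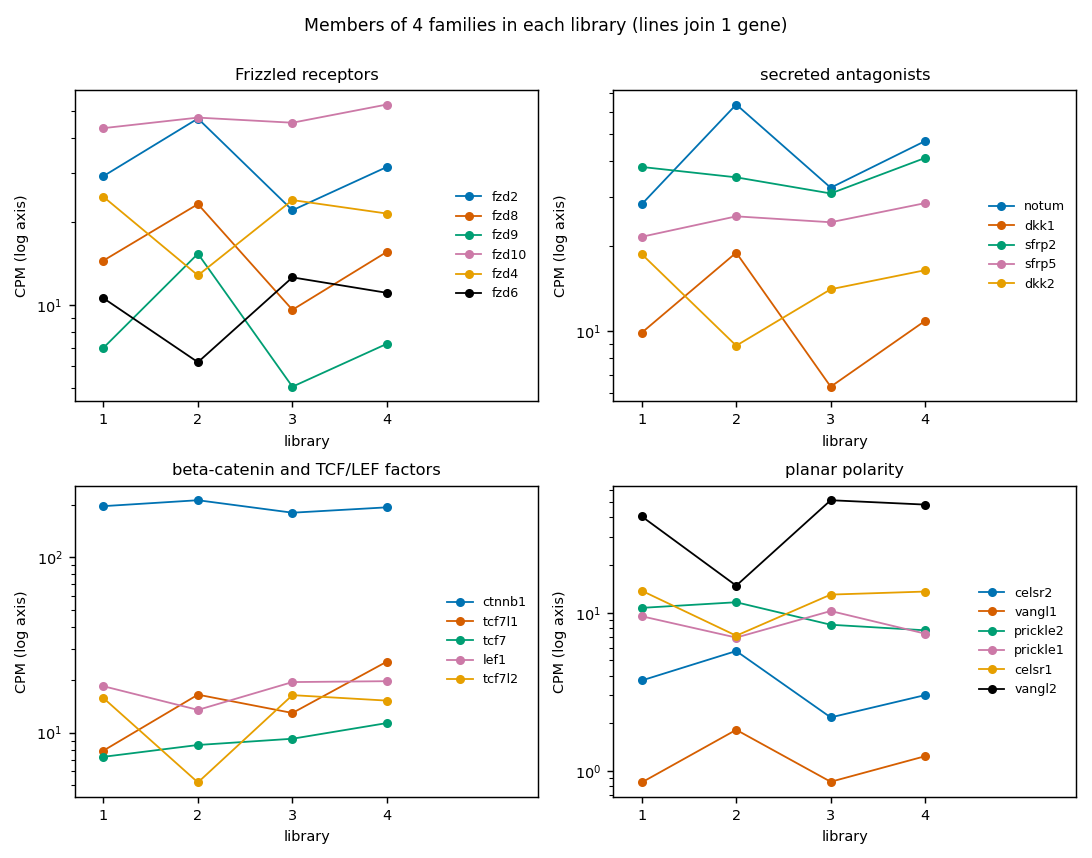
CPM on a log axis in libraries 1 to 4 for members of 4 families, each line joining the values of 1 gene. Library 2 is the highest for fzd2, fzd8, fzd9, notum, dkk1, ctnnb1, celsr2, vangl1 and prickle2, and the lowest for fzd4, fzd6, dkk2, lef1, tcf7l2, vangl2, celsr1 and prickle1.

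In the cytoplasmic relay, casein kinase 1 alpha, which places the priming phosphate on beta-catenin, differed between pools. Levels of csnk1a1 were 342, 515, 228 and 403 CPM, a 2.26-fold range. Other casein kinase 1 genes did not share this pattern. Both csnk1e (47.4, 42.2, 40.4 and 47.6 CPM) and csnk1d (37.4, 34.3, 26.6 and 30.1 CPM) stayed within a 1.41-fold range. For csnk1g1, levels were 29.4, 11.6, 20.3 and 18.4 CPM, and for csnk1g2 26.4, 15.3, 30.1 and 27.0 CPM, both with library 2 lowest. The count ratio of csnk1a1 to csnk1g1 thus moved from 11.2 in library 3 to 44.5 in library 2.

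The scaffold axin2 is a direct target of the pathway and a common reporter of its activity. It had 35.4, 22.6, 31.2 and 28.9 CPM, a mean of 29.5 ± 5.35 CPM (SD, n = 4), with library 2 lowest. Its relative axin1 had only 26 to 55 counts per library. The kinase gene gsk3b was among the steadiest members, at 4.58, 5.32, 4.89 and 4.29 CPM, while gsk3a had 7.16, 11.2, 10.1 and 12.2 CPM. Levels of apc, the large scaffold of the destruction complex, were 5.93, 7.40, 9.11 and 9.99 CPM, and those of apc2 were 3.31, 1.26, 3.21 and 1.88 CPM. Of the Dishevelled genes, dvl2 was measured at 20.4, 14.9, 18.1 and 16.7 CPM, dvl1 at 1.11 to 2.00 CPM and dvl3 at 0.770 to 1.92 CPM. The feedback inhibitor nkd1 had 0.962, 1.63, 0.619 and 1.31 CPM, from at most 67 counts.

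Beta-catenin had the lowest CV of the 63 members on library totals, whereas csnk1e was lower with TMM (4.73% beside 6.11%) and DESeq2 size factors (3.90% beside 5.93%). Levels of ctnnb1 were 196, 212, 180 and 193 CPM, with a mean of 195 ± 13.2 CPM (SD, n = 4). Its CV of 6.75% compares with a median of 24.5% over the 63 members. A CV under 10% was found in 5 of the 63 members, namely ctnnb1, lrp6, csnk1e, fzd10 and gsk3b, a share of 7.94%, where 5.43% of all genes with 10 or more counts in every library had one. With the other library scalings, ctnnb1 and csnk1e kept a CV under 10%, fzd10 did so with DESeq2 size factors only (9.20%, and 10.8% with TMM), and lrp6 and gsk3b did not. The members under 10% were 7 with TMM and 6 with DESeq2 size factors, shares of 11.1% and 9.52%. Under the same scalings, 6.55% and 6.54% of all genes with 10 or more counts in every library were.

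The TCF/LEF factors, through which beta-catenin acts on DNA, varied more than beta-catenin itself. In lef1, levels were 18.4, 13.5, 19.4 and 19.6 CPM, and in tcf7 7.27, 8.50, 9.22 and 11.3 CPM. Both factors are mostly activators. For tcf7l2, 15.7, 5.20, 16.4 and 15.2 CPM were measured. The 3 other libraries lay close together, and library 2 was 3.15-fold below the highest. The mostly repressing factor tcf7l1 had 7.89, 16.5, 12.9 and 25.4 CPM, a 3.22-fold range with library 4 highest and library 1 lowest. As a result, the count ratio of tcf7l1 to tcf7l2 was 0.501, 3.17, 0.791 and 1.67, a 6.32-fold range. Pygo2 and bcl9 form the bridge that recruits co-activators to beta-catenin. They were lowest in library 2, with pygo2 at 44.9, 19.9, 46.5 and 34.6 CPM and bcl9 at 35.1, 23.7, 36.3 and 33.7 CPM. The beta-catenin inhibitor ctnnbip1 showed 27.1, 13.4, 23.4 and 26.3 CPM, and bcl9l 1.48 to 2.09 CPM. Levels of ctnnbl1 were 36.3 to 47.0 CPM.

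In the planar polarity branch, vangl2, a membrane protein needed for convergence and extension, had 40.6, 14.8, 51.4 and 48.3 CPM. Library 2 was low and did not overlap with the range of 40.6 to 51.4 CPM in the others. Its relative vangl1 was highest in library 2, with 0.847, 1.82, 0.855 and 1.24 CPM, from 22 to 75 counts. The count ratio of vangl1 to vangl2 moved 7.39-fold. The atypical cadherin celsr1 had 13.8, 7.16, 13.03 and 13.6 CPM, whereas celsr2 was measured at 3.73, 5.73, 2.18 and 3.02 CPM, again in opposite directions in library 2. In celsr3, 12, 16, 12 and 30 counts were present. Prickle genes ranged from 6.97 to 10.3 CPM for prickle1, 7.75 to 11.7 CPM for prickle2 and 2.04 to 3.25 CPM for prickle3. Summed over the 8 genes, the level was 51.8 CPM in library 2 and 81.7 to 89.4 CPM in the others. Without vangl2 the sums were 41.1, 37.0, 37.9 and 37.0 CPM. Neither set of sums holds the polarity entries with LOC identifiers given below, LOC107377170 and prickle1a. The former, named vangl2 in RefSeq, was highest in library 2, at 25.4 CPM beside 9.70 to 18.1 CPM. For prickle1a, library 1 was highest at 28.4 CPM and library 3 lowest at 18.7 CPM. The fall of the sum in library 2 thus holds for the 8 named genes only.

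**Figure D3:**
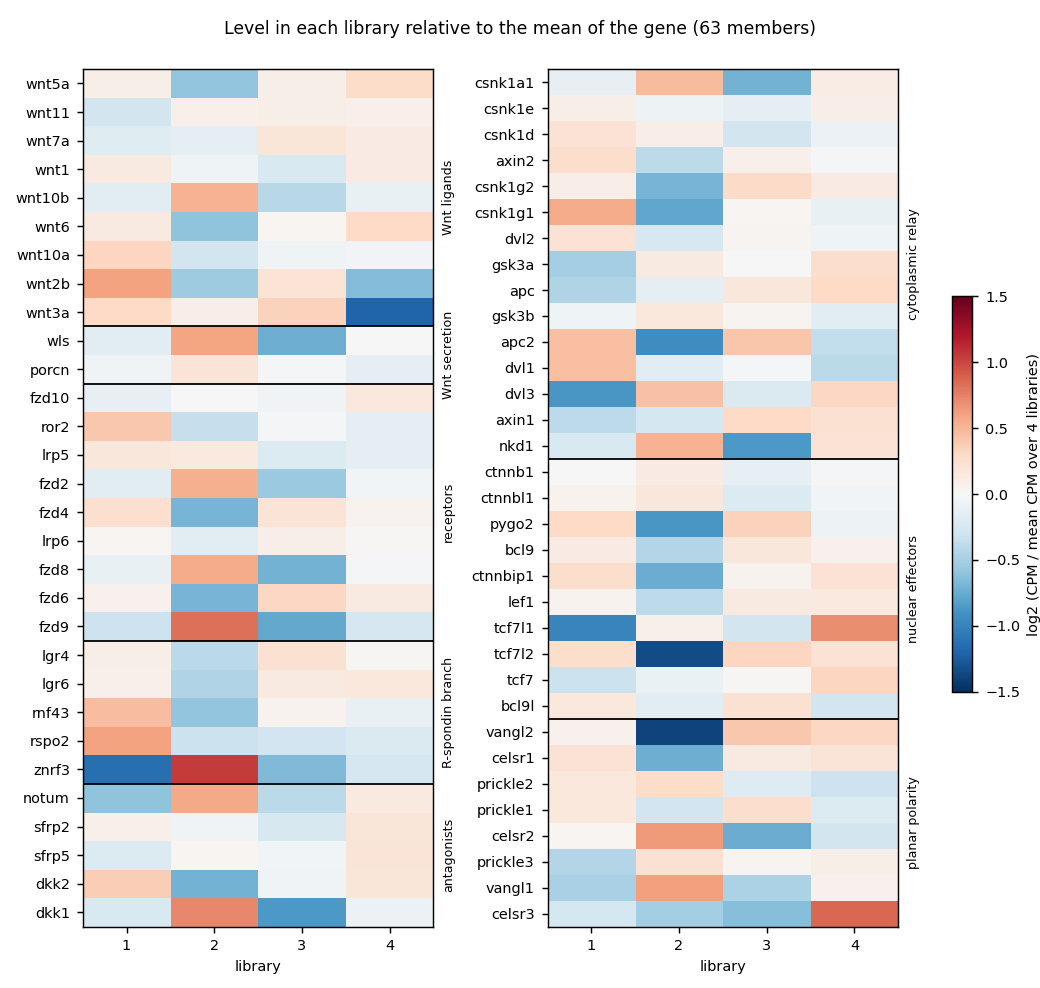
Level of the 63 members with 10 or more counts in every library, as log2 of CPM over the mean of the gene across the 4 libraries, grouped by role, with red above and blue below the mean. Library 2 holds the deepest blue for tcf7l2 and vangl2 and the deepest red for znrf3 and fzd9.

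The spread of the pathway between pools was compared with that of the whole table. The highest library was at least 2-fold above the lowest in 25 of the 63 members, 39.7%, where 41.7% of all genes with 10 or more counts in every library passed this limit. The median CV was 24.5% for the members and 26.9% for all genes, of which counting noise alone would give a median of 5.14% and 5.63%. The wide range of many Wnt genes is thus a share near the background. By role, the median CV was 18.3% for nuclear effectors, 23.4% for ligands, 23.8% for relay genes, 26.3% for receptors, 29.1% for antagonists, 29.6% for the R-spondin branch and 32.6% for planar polarity genes. These medians rest on 5 to 15 genes a role and were not tested against each other.

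The number of 2-fold ranges depended mostly on library 2, and the median CV of the members fell from 24.5% to 16.04% without it. Over all genes the median CV fell as well, from 26.9% to 21.2%. Without library 2, only 6 of 64 members had a 2-fold range, or 9.38%, while 18.6% of all genes did. These 6 were tcf7l1, wnt3a, celsr3, wnt2b, dvl3 and nkd1. Leaving out library 1, 3 or 4 in place of library 2 left 18, 17 and 23 members with such a range. These were 28.1%, 26.6% and 36.5%, beside 33.3%, 30.3% and 37.0% of all genes. Library 2 was the highest for 19 members and the lowest for 25, shares of 30.2% and 39.7%, beside 33.8% and 35.6% of all genes. With a 2-fold range as well, these were 12 and 9 members, beside 17.4% and 15.7% of all genes. Wnt genes thus departed in library 2 to both sides, as the rest of the table did. Libraries 1, 3 and 4 were the highest for 17, 14 and 13 members, where 32.8%, 14.7% and 18.7% of all genes peaked in them. They were the lowest for 14, 17 and 7 members, beside 14.6%, 37.6% and 12.2% of all genes. On library totals, 1 library stood apart from the other 3 by Dixon's ratio in 6 members, 9.52% beside 4.86% of all genes. Library 2 was low for tcf7l2, celsr1 and lgr6. Library 1 was low for wnt11 and high for rspo2, and library 4 was high for celsr3. With TMM 6 members were called too, but tcf7l2, celsr1, lgr6 and wnt11 were not among them. With DESeq2 size factors 7 were called, without tcf7l2, lgr6 and wnt11. The share of all genes called was computed on library totals only, so the TMM and DESeq2 counts have no background beside them.

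**Figure D4:**
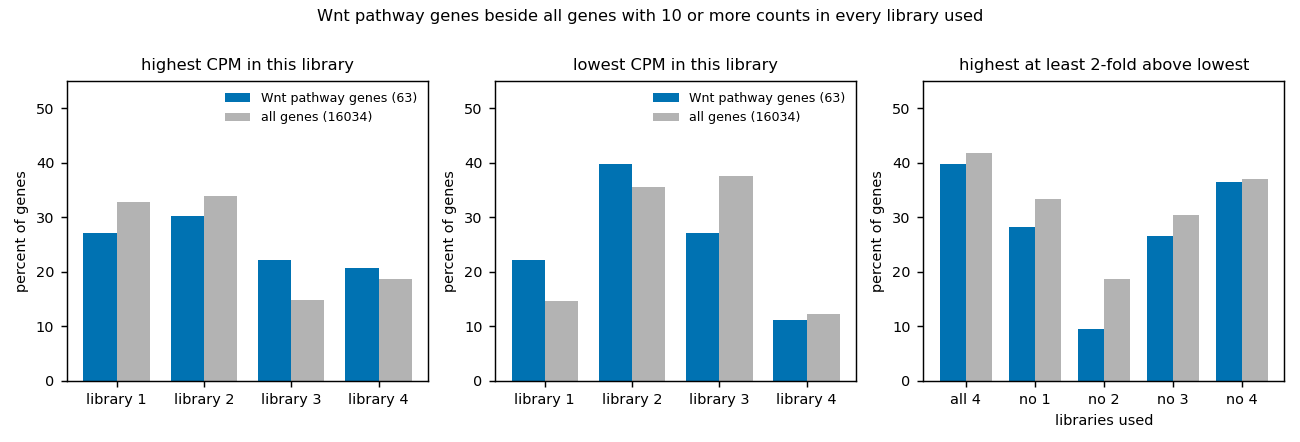
Percent of the Wnt pathway genes and of all genes whose CPM was highest (left) or lowest (middle) in each library, and percent whose highest library was at least 2-fold above the lowest with all 4 libraries or with 1 left out (right). Library 3 is the lowest for 27.0% of the Wnt genes and 37.6% of all genes, and on the right both sets fall lowest without library 2, at 9.38% and 18.6%.

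The order of the libraries was the same for several members. With library 3 lowest, followed by 1, 4 and 2, were csnk1a1, wls, dkk1, fzd2, fzd8, fzd9, wnt10b and nkd1, 8 of 63 members or 12.7%. This was also the most frequent order over all genes, at 15.1%. The 8 genes kept it with TMM and with DESeq2 size factors. The reverse order was found for 6 members, bcl9, lgr4, lrp6, prickle1, pygo2 and tcf7l2, beside 5.78% of all genes. Of these, prickle1 and pygo2 kept it under both scalings. On library totals, libraries 2 and 4 both lay above libraries 1 and 3 in 17 members, 27.0%, and both below in another 17, beside 27.9% and 21.8% of all genes. With TMM these were 15 and 15 members, beside 28.03% and 24.2% of all genes. With DESeq2 size factors they were 14 and 19, beside 26.4% and 26.5%. The most frequent split of the members with TMM was instead libraries 3 and 4 above libraries 1 and 2. It was found for 20 members, 31.7% beside 19.3% of all genes, and for 10 members on library totals. Library 2 was the deepest and library 3 the second deepest, and the part of depth in this order was not tested. Over the members, the highest library was the same as on totals for 51 with TMM and 52 with DESeq2 size factors, and the lowest for 59 with either. The full order of the 4 libraries was the same for only 35 of 63 with TMM and 39 with DESeq2 size factors, so it depended on the scaling.

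Some genes of the pathway are listed under LOC identifiers only. In the RefSeq gene table of another assembly of this species, 21 LOC identifiers have a symbol that meets the naming rule. The count table itself lacks 19 of these symbols. Members carry the other symbols, csnk1e and vangl2. Of the 21 entries, 14 reached 1 CPM in every library, beside 53.7% of all genes. The entry named csnk1e in RefSeq (LOC107388239) had 4 to 12 counts per library. A Wnt5-type ligand, wnt5b (LOC107385014), had 18.3, 11.2, 18.4 and 16.3 CPM, and like wnt5a it was lowest in library 2. The R-spondin rspo3 (LOC107378789) had 3.73, 3.54, 4.98 and 3.39 CPM. Tankyrase, which marks AXIN for degradation, was measured as tnksa (LOC107396916) at 8.74, 4.27, 6.87 and 6.91 CPM. Ligand wnt9b (LOC107378473) had 6.00, 3.98, 5.25 and 5.16 CPM, and wnt3 (LOC107387617) was nearly level at 1.48 to 1.61 CPM. The receptor fzd5 (LOC107389686), which acts in the eye field, had 8.04, 8.33, 6.69 and 6.34 CPM. For prickle1a (LOC107372407), levels of 28.4, 25.0, 18.7 and 20.8 CPM were measured, and for sfrp2l (LOC107380463) 12.0, 10.5, 15.1 and 21.5 CPM. Both differed from the table's prickle1 and sfrp2 in their order of libraries. The neural ligand wnt8b (LOC107375911) had 2.58, 1.19, 1.41 and 1.27 CPM. Several entries bear names close to those of members with few counts. For fzd3b (LOC107381211), levels were 3.35, 3.33, 3.01 and 4.36 CPM, and for fzd3a (LOC107395717) 0.616, 2.67, 0.295 and 1.58 CPM. Levels of dkk3a (LOC107381343) were 1.58, 1.55, 1.18 and 2.28 CPM, and those of wnt7bb (LOC107388424) 1.77, 1.36, 1.47 and 2.41 CPM. By contrast, wnt4b (LOC107379462) stayed at 0.308 to 0.537 CPM. For LOC107377170, named vangl2 in RefSeq, levels were 11.5, 25.4, 9.70 and 18.1 CPM, with libraries 2 and 4 above 1 and 3. The gene that the count table itself calls vangl2 had its lowest value in library 2. The count ratio of the former to the latter was 1.71 in library 2 and 0.189 to 0.375 in the others. Whether the 2 entries are copies of 1 gene was not tested, and only reads that align to a single locus were counted.

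Other modulators of the pathway were read from a separate list of names, of which 29 of 47 were found as symbols. Of these, 23 reached 1 CPM in every library, beside 53.7% of all genes. The polarity receptor ptk7 had 89.6, 39.1, 64.5 and 66.4 CPM, and scrib, a scaffold of cell polarity, had 29.8, 8.52, 26.5 and 21.8 CPM. The co-repressor tle1 had 40.3, 15.0, 34.8 and 28.3 CPM. For cby1, an antagonist of beta-catenin that also serves cilia, the levels were 228, 75.6, 230 and 173 CPM. In all 4 genes library 2 was the lowest. The Wnt and FGF antagonist shisa3 instead had 20.7, 46.3, 13.8 and 39.1 CPM. Among the 27 modulators with 10 or more counts in every library, 7 were highest and 13 lowest in library 2, beside 33.8% and 35.6% of all genes.

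Of 19 names of genes induced by Wnt signaling in other vertebrates, 9 were found, and 8 reached 1 CPM in every library, again beside 53.7% of all genes. Levels of sp5, a direct target and effector of the pathway in the tail bud, were 10.8, 49.5, 11.2 and 40.2 CPM. Libraries 2 and 4 lay far above libraries 1 and 3. In msx1, a factor of the neural plate border, levels were 68.0, 158, 46.0 and 119 CPM, and in gbx2, a factor of the hindbrain, 0.616, 2.18, 0.589 and 1.98 CPM. The presomitic factor msgn1 was steadier, at 72.3, 68.8, 60.6 and 80.6 CPM. Of the 9 targets, 6 were highest in library 2, beside 33.8% of all genes. For ccnd1 this was a near tie, at 9.30 CPM beside 9.25 CPM in library 4. Library 2 was the lowest for myc, at 6.80 CPM beside 9.39 to 14.5 CPM. Members such as axin2 and notum were not counted among these 9 targets. The target axin2 differed from sp5, since libraries 2 and 4 were its lowest.

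**Figure D5:**
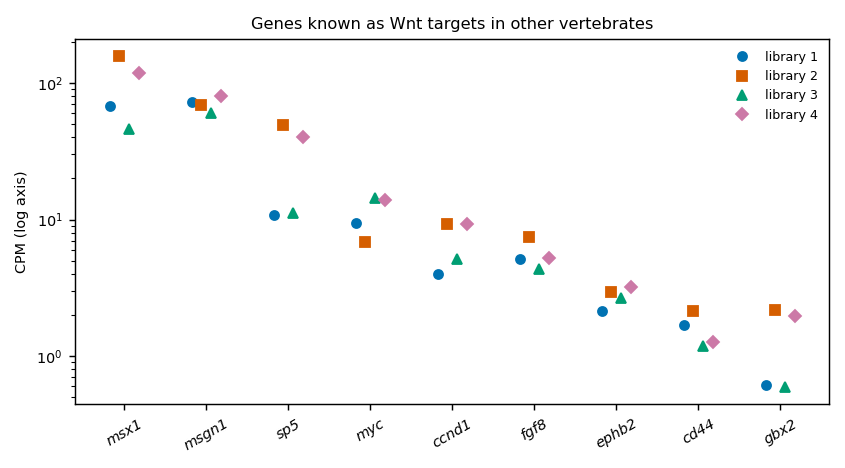
CPM on a log axis of 9 genes known as Wnt targets in other vertebrates, in each of the 4 libraries. For sp5, msx1, gbx2 and ccnd1, libraries 2 and 4 lie above libraries 1 and 3, whereas for myc library 2 is the lowest.

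Markers of several tissues moved between the same libraries. Summed over the markers found by name, levels in libraries 1 to 4 were 160, 253, 147 and 241 CPM for muscle and somite (6 of 12 names), and 304, 410, 272 and 393 CPM for neural tissue (8 of 10). The muscle and somite sum was mostly myf5 and meox1. In mef2c and pax3 library 1 was the lowest and library 4 the highest, and myog had 21.7, 21.7, 16.8 and 21.4 CPM. The neural sum was carried by sox3, at 93.1 to 201 CPM, and neurog1, at 40.9 to 98.7 CPM. In 4 neural markers library 2 was the highest, and it was the lowest in the other 4, sox2, pax6, elavl3 and sox10. For the enveloping layer and epidermis (3 of 8), mostly epcam, they were 260, 520, 200 and 365 CPM, although evpl and tp63 were lowest in library 2. All 3 sums had the order of csnk1a1 and dkk1, which a few abundant markers set. Heart and blood markers (6 of 9), mostly the cardiac myosin gene myl7, had 488, 381, 478 and 371 CPM. In this list lmo2, gata4, nkx2-5 and tal1 went the other way, with libraries 2 and 4 above libraries 1 and 3, as in gata4 at 0.885, 8.04, 1.12 and 5.00 CPM. The 2 yolk or liver markers found of 8 summed to 8.47, 4.37, 8.25 and 6.61 CPM. This sum was mostly ttr, while fgb went the other way at 0.385, 0.680, 0.177 and 0.939 CPM, from 6 to 28 counts. The only notochord and floor plate marker found, foxa2, had 25.4, 59.6, 25.1 and 46.3 CPM. None of the markers found was at 0 in all libraries. The part of tissue makeup or of exact stage in the Wnt values was not tested.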

How the data were processed

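The authors deposited read counts per gene as whole numbers, without normalization. Per their methods and the submitters' processing notes, reads were trimmed with Trim Galore 0.4.5 and aligned with STAR 2.7.1a to the genome of the species. Reads aligning to several loci were removed with SAMtools 1.5, and the rest were counted with featureCounts of Subread 2.0.1. Gene copies too alike to tell apart thus lose the reads they share. The study names Nfu_20140520 as its reference genome of this species. The strand setting is not given in the sources used here. cDNA was made with a low-input kit and amplified, so counts are not independent molecules and counting intervals cover counting error only.

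Columns were matched to samples by name. CPM on library totals were computed with Python 3.11.15, pandas 2.3.3 and numpy 2.4.6, and drawn with matplotlib 3.10.9. Alternative totals came from the TMM method of edgeR 4.0.16 and the size factors of DESeq2 1.42.0 in R 4.3.3. The limit for expression was 1 CPM in every library, and spread was computed for genes with at least 10 counts in every library. A library was called apart when its gap to the nearest value, divided by the range, passed Dixon's 95% critical value. The calculations were tested on simulated data. With 1 group, no test between groups was possible. The planned tests of role levels and of a and b copies were not run, because no transcript lengths were at hand and no members are named as such pairs.

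Members and lists were chosen with earlier results of these data known. The rule for named genes took the 4 members of each role with the highest mean CPM, members with 1 library apart, and a short list of well-known members. Those named with an order of libraries or a count ratio were chosen after their values were seen. Symbols come from the count table. From the list of Wnt targets, 1 gene is not reported here. Names for LOC identifiers come from the RefSeq table of the NfurGRZ-RIMD1 assembly. The table of the lyretail and red-striped killifish was not used, as its features carry no gene names. Alternatives covered the limit, the scaling, the low-count filter, the added names and leaving out each library.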

Additional observations from a re-analysis of the deposited data

Results flagged for a closer look

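Over 131 groups of 4 values, 8 held 1 library apart from the others, where chance gives about 1 in 20. Among the members, these were 6 of 63, or 9.52%, beside 4.86% of all genes, on library totals. Of these 6, rspo2 and celsr3 also passed with TMM and with DESeq2 size factors. The flag of celsr1 held with DESeq2 size factors but not with TMM, and those of tcf7l2, lgr6 and wnt11 with neither. Library 2 was low for tcf7l2 (5.20 CPM, beside 15.2 to 16.4 CPM), celsr1 (7.16 CPM, beside 13.03 to 13.8 CPM) and lgr6 (3.96 CPM, beside 5.70 to 6.00 CPM). Library 1 was low for wnt11 (13.6 CPM, beside 17.4 to 17.6 CPM) and high for rspo2 (2.96 CPM, beside 1.55 to 1.68 CPM). Library 4 was high for celsr3 (1.01 CPM, beside 0.354 to 0.462 CPM), from 30 counts. Outside the members by name, LOC107375911, named wnt8b in RefSeq, was high in library 1 (2.58 CPM, beside 1.19 to 1.41 CPM), and the antagonist draxin was low in library 3 (0.943 CPM, beside 1.65 to 1.74 CPM).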

How the results depend on the processing

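The number of members at 1 CPM in every library, 57 of 71, was 60 at 0.5 CPM, 43 at 5 CPM, 61 with a mean of 1 CPM, 56 with TMM or DESeq2 size factors, and 57 to 58 with each library left out. With the LOC genes added it was 71 of 92. For other modulators the count was 14 at 5 CPM, and 23 to 25 with each library left out. For targets it was 4 at 5 CPM and 8 with each library left out. The share of all genes at 1 CPM, 53.7%, was computed on library totals with all 4 libraries only. Counts under the other limits, scalings or sets of libraries thus have no background beside them. The number of members with a 2-fold range, 25, was 16 of 47 at 100 counts in every library, a filter that leaves fewer genes. That was 34.0%, beside 32.6% of all genes under this filter. Leaving out each library gave 6 to 23, the lowest without library 2, and median CVs of 16.04% to 26.6%. All genes had median CVs of 21.2% to 29.1%, and 18.6% to 37.0% of them had a 2-fold range, both also lowest without library 2. The alternatives for the other pathway genes, the added names for the spread and the library orders under other scalings were chosen after the data were seen. Levels under 10 counts are limited by depth. No paired analysis was possible because the 4 libraries form 1 group.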
